A study of Homo sapiens with 6 samples.

Results

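The 10 genes described here are the Notch receptors NOTCH1, NOTCH2 and NOTCH3, the ligands JAG1, JAG2 and DLL1, and the target genes HES1, HES4, HEY1 and NRARP. They were picked by symbol from the 56303 genes of the deposited table, all 10 were found, and all 10 passed the filter on low counts. The study compared RNA of T24 cells, an established human bladder cancer line, after transfection with siNC, a control siRNA, or with siFBXL6, directed at the F-box gene FBXL6. Its stated purpose was to find how FBXL6 acts on bladder tumor growth and spread. Each group had 3 libraries, the genotype was labelled WT for siNC and FBXL6 knockdown for siFBXL6, and all 6 libraries carried the same batch label. By the paper's methods the cells were collected 48 h after transfection, and a stranded mRNA kit was used on 2 μg of RNA per sample. The sources used here do not say which siRNA against FBXL6 was in which library. The labels number the libraries siFBXL6-1, siFBXL6-2 and siFBXL6-3. In the paper's methods the same names, apart from the last, stand for different siRNAs. The number was read as a replicate number, and if it names an siRNA instead, the 3 libraries are not replicates of 1 treatment.

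Notch receptors sit in the cell membrane and are switched on by ligands of the Jagged and Delta-like families on a neighbouring cell. Binding lets a metalloprotease and then the gamma-secretase complex cut the receptor, and the freed inner part enters the nucleus, where it joins the DNA-binding protein RBPJ and Mastermind coactivators to turn on genes such as those of the HES and HEY families. In the bladder the pathway takes part in urothelial differentiation, and in bladder cancer both inactivating changes of Notch genes and growth-promoting roles of NOTCH2 have been described.

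The siNC libraries held 58646515, 60967902 and 56814946 counts, and the siFBXL6 libraries 60968158, 60898556 and 60754015. Levels are given as CPM, counts scaled to a library of 1000000 after the TMM method, and levels of different genes are compared only as RPKM, which is CPM per kilobase of summed exon length. Log2 fold changes are siFBXL6 over siNC, and a gene was called where edgeR's quasi-likelihood test over 21298 genes gave it an adjusted p below 0.05. Values after ± are SDs with n = 3. These p-values measure only the spread between these samples, which may be technical, and the exact permutation test of 3 against 3 libraries cannot go below 0.1. In bulk RNA, fewer cells of a type and less RNA per cell cannot be told apart.

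The targeted gene did not set the groups apart. FBXL6 had 362, 414 and 398 counts under the siNC label and 398, 344 and 350 under the siFBXL6 label, so the ranges overlap. Its log2 fold change was -0.13 (SE 0.088, adjusted p = 0.247 by edgeR). Exons of other genes cover 37.0% of its exon bases, 31.7% by SLC52A2 on the opposite strand and 5.3% by GS1-393G12.13 on the same strand. For this reason the groups are called by their labels throughout, and every direction below is one between labels, since these counts do not show a loss of FBXL6 RNA. The paper also measured FBXL6 in T24 cells by other assays, which are not in the deposited counts. Of the genes often used as references, ACTB (cytoskeletal actin) had a log2 fold change of 0.00, and GAPDH (a glycolytic enzyme) one of 1.80, from 188 to 657 CPM.

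Among the 10 Notch genes, 7 were called, and 7 had groups that do not overlap. Of all genes tested, 40.2% were called and 48.2% had groups that do not overlap. The members were chosen with earlier results of these data known, so their share of calls is no test of the set. The called members were split, with NOTCH2 and DLL1 (2 genes) higher under the siFBXL6 label and NOTCH1, NOTCH3, JAG1, JAG2 and HES1 (5 genes) lower, where 20.5% of all genes were called higher and 19.8% lower. No member reached 2-fold, whatever its p, since the largest absolute log2 fold change was 0.30, while 2.92% of all genes were called at 2-fold or more. The median log2 fold change over the members was -0.15 and over all genes tested -0.01. The median absolute log2 fold change was 0.21 over the members, 0.18 over all genes and 0.28 over all called genes. By role, 3 of 3 receptors, 3 of 3 ligands and 1 of 4 target genes were called. The target genes not called had the fewest counts of the 10 members. The log2 fold changes with their intervals are shown by role in the plot of change, where every interval lies inside 2-fold.

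**Figure D1:**
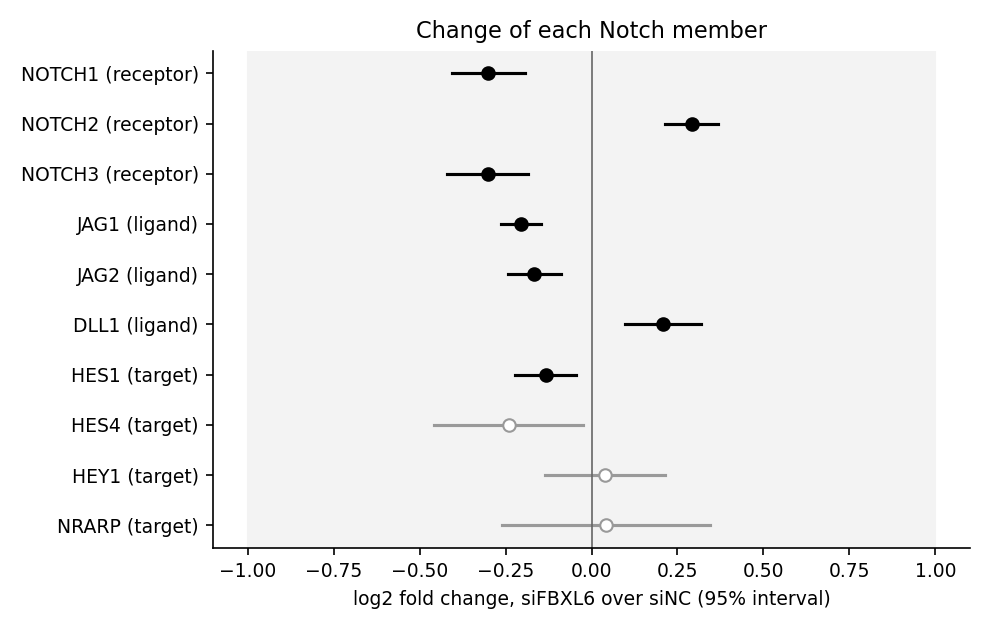
Log2 fold change of siFBXL6 over siNC for each of the 10 Notch genes, with lines for the 95% interval from edgeR's model. Filled points were called by edgeR and open points were not, and the grey band marks changes of less than 2-fold. NOTCH2 and DLL1 lie to the right of 0, and NOTCH1, NOTCH3, JAG1, JAG2 and HES1 to the left.

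The 3 receptors did not move together. NOTCH1 (chr9:136494444-136545862, minus strand, GRCh38), the receptor best known from T-cell leukemia and from squamous differentiation, stood at 21.3, 21.8 and 22.8 CPM in the libraries labelled siNC and at 18.2, 17.5 and 17.8 CPM in those labelled siFBXL6. All 3 siFBXL6 libraries lie below all 3 siNC libraries, with little spread in either group. NOTCH1 fell by 18.8%, a log2 fold change of -0.30 (SE 0.052, 95% interval -0.41 to -0.19, adjusted p = 1.39e-05 in edgeR's test, exact permutation p = 0.1). NOTCH3 (chr19:15159038-15200981, minus strand), a receptor known for its part in vascular smooth muscle, stood at 17.5, 19.7 and 19.6 CPM against 15.0, 15.8 and 15.3 CPM. The groups do not overlap, although siNC replicate 1 lies nearer to the siFBXL6 libraries than the other siNC libraries do. NOTCH3 fell by a similar amount, with a log2 fold change of -0.30 (SE 0.058, 95% interval -0.42 to -0.18, adjusted p = 5.9e-05 in edgeR's test, exact permutation p = 0.1).

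NOTCH2 (chr1:119911553-120069626, minus strand), a receptor with broad roles in development of liver, kidney and bone, moved the other way. It stood at 43.2, 42.1 and 44.0 CPM in the libraries labelled siNC and at 51.6, 54.3 and 52.3 CPM in those labelled siFBXL6. Every siFBXL6 library lies above every siNC library, and the gap between the groups is wider than the spread in each. NOTCH2 rose by 22.3%, a log2 fold change of 0.29 (SE 0.037, 95% interval 0.21 to 0.37, adjusted p = 7.98e-08 in edgeR's test, exact permutation p = 0.1). Its count carries an uncertainty, since near-identical partial copies of NOTCH2 lie on the same chromosome and the treatment of reads that fit more than 1 place is not given in the sources used here. The table has a row NOTCH2NL at a single place (chr1:146146203-146229026, minus strand), a name that RefSeq lists as a synonym of several copies, so which copy it counts is not settled here. NOTCH2NL had 13.4, 12.7 and 12.6 CPM against 16.2, 16.6 and 15.3 CPM. NOTCH2NL thus also lay higher in all 3 siFBXL6 libraries, with a log2 fold change of 0.31 (SE 0.060, adjusted p = 6.23e-05 in edgeR's test). The pseudogene NOTCH2P1 had 0 counts in all 6 libraries.

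With the receptors moving in opposite directions, their shares shifted more than their sum. Summed over the 3 receptors, the level was 6.80 ± 0.21 RPKM in the libraries labelled siNC and 6.58 ± 0.0916 RPKM in those labelled siFBXL6 (exact permutation p = 0.2, n = 3 each), with ranges that overlap. NOTCH2 made up 39.1%, 36.8% and 37.3% of this sum in the siNC libraries and 47.2%, 48.4% and 47.6% in the siFBXL6 libraries. The share of NOTCH1 went from a mean of 32.7% to 27.5%, and that of NOTCH3 from 29.6% to 24.8%, each without overlap between the groups (exact permutation p = 0.1 for each of the 3 shares, n = 3 each). The stacked shares per library show the NOTCH2 band wider in the siFBXL6 libraries. The summed exon length of NOTCH2 in the table, 16804 bases, pools all its annotated exons, so its RPKM is the lower for it and these shares depend on the annotation.

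**Figure D2:**
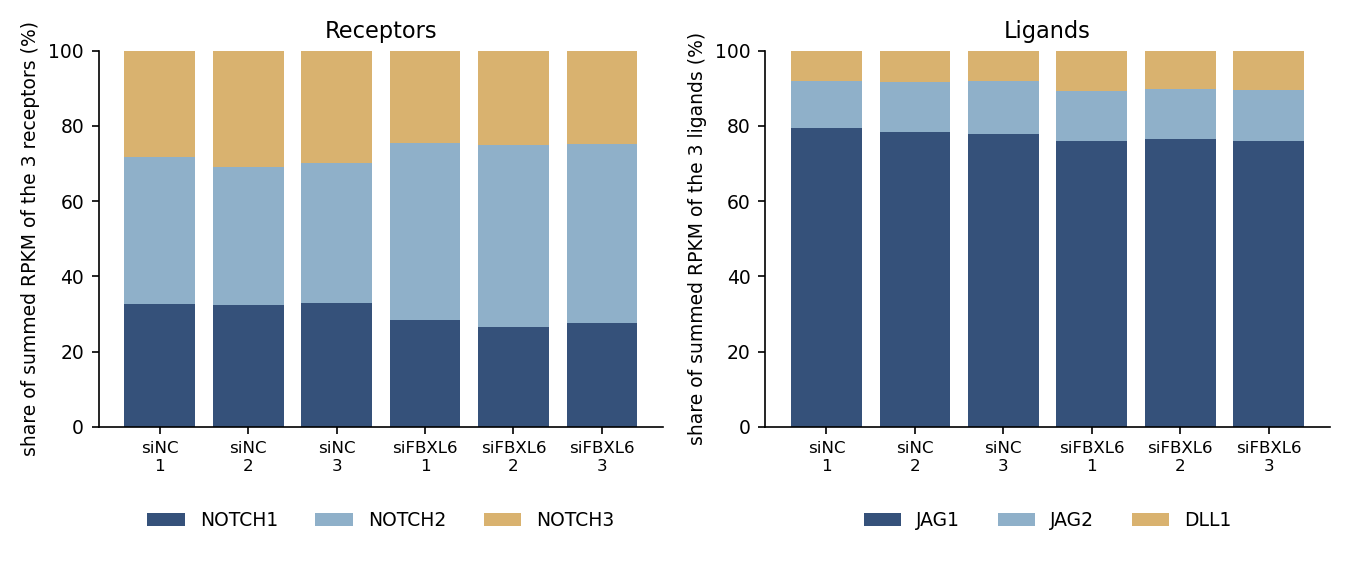
Share of each receptor (left) and each ligand (right) in the summed RPKM of its set, in percent, with 1 bar per library. The NOTCH2 band widens from a mean of 37.7% to 47.7% between siNC and siFBXL6, and the DLL1 band from 8.1% to 10.5%.

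The ligands were also split. JAG1 (chr20:10637684-10674107, minus strand), the Jagged ligand whose loss underlies Alagille syndrome, stood at 428.6, 423.6 and 406.8 CPM in the libraries labelled siNC and at 365.7, 365.1 and 361.8 CPM in those labelled siFBXL6. The siFBXL6 libraries lie close together and below every siNC library. JAG1 fell by 13.2%, a log2 fold change of -0.20 (SE 0.029, 95% interval -0.26 to -0.15, adjusted p = 4.94e-07 in edgeR's test, exact permutation p = 0.1).

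JAG2 (chr14:105140981-105168824, minus strand), the other Jagged ligand, stood at 51.0, 54.3 and 55.1 CPM against 47.9, 47.2 and 47.8 CPM. Here too the groups do not overlap, and siNC replicate 1 comes nearest to the siFBXL6 libraries. The log2 fold change was -0.17 (SE 0.037, 95% interval -0.24 to -0.09, adjusted p = 0.000467 in edgeR's test, exact permutation p = 0.1). Of the exon bases of JAG2, 7.33% are shared with RP11-44N21.4, a short gene on the same strand, which had 453, 526 and 531 counts in the siNC libraries and 493, 452 and 470 in the siFBXL6 libraries. RP11-44N21.4 was not called (log2 fold change -0.12, adjusted p = 0.236 in edgeR's test; -0.18 without siNC replicate 1 and -0.06 without siNC replicate 3), and how reads on both genes were counted is not given in the sources used here. JAG1 shares 0.926% of its exon bases with a gene on the opposite strand, and the other 8 members share 0 with any gene in the table.

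DLL1 (chr6:170282206-170306565, minus strand), a Delta-like ligand that acts in somite and pancreas development, was the ligand that rose. Its levels were 16.3, 16.8 and 16 CPM in the libraries labelled siNC and 19.7, 18.3 and 18.8 CPM in those labelled siFBXL6. The groups do not overlap, with siFBXL6 replicate 1 the highest. The log2 fold change was 0.21 (SE 0.054, 95% interval 0.10 to 0.32, adjusted p = 0.00222 in edgeR's test, exact permutation p = 0.1).

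Per length, JAG1 was by far the most abundant ligand RNA, so the ligand sum followed it. Summed over JAG1, JAG2 and DLL1, the level was 62.6 ± 1.19 RPKM in the siNC libraries and 56.0 ± 0.406 RPKM in the siFBXL6 libraries, without overlap (exact permutation p = 0.1, n = 3 each). The mean share of JAG1 in this sum went from 78.5% to 76.2%, and that of DLL1 from 8.1% to 10.5% (exact permutation p = 0.1 for each, n = 3 each). JAG2 held 13.4% and 13.3%, with overlapping groups (exact permutation p = 0.9, n = 3 each).

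Fewer calls were made among the target genes, 1 of 4, than among receptors and ligands, and this difference was not tested. The target genes not called, HES4, HEY1 and NRARP, had the fewest counts of all members, 2035, 2575 and 703 over all libraries. NOTCH3, the next lowest, had 6144. Their SEs were also the largest, at 0.11 for HES4, 0.086 for HEY1 and 0.15 for NRARP. HES1 (chr3:194136145-194138732, plus strand), a repressor that keeps progenitor cells from differentiating, stood at 34.9, 36.3 and 33.3 CPM in the libraries labelled siNC and at 30.8, 32.6 and 31.9 CPM in those labelled siFBXL6. The groups do not overlap, but siNC replicate 3 and siFBXL6 replicate 2 lie close to each other. The log2 fold change was -0.13 (SE 0.044, 95% interval -0.22 to -0.04, adjusted p = 0.0139 in edgeR's test, exact permutation p = 0.1). The call of HES1 depended on single libraries, since the log2 fold change was -0.10 (adjusted p = 0.104) without siNC replicate 2 and, with siFBXL6 replicate 1 left out, -0.11 (0.0842). Over the 15 alternatives run, its adjusted p in edgeR, DESeq2 or limma ran from 0.005 to 0.104.

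HES4 (chr1:998962-1000172, minus strand), a related repressor that is absent from the mouse genome, stood at 5.01, 7.51 and 5.87 CPM in the libraries labelled siNC and at 5.06, 5.22 and 5.31 CPM in those labelled siFBXL6. The siNC libraries spread widely, with replicate 2 far above the other 5 libraries and replicate 1 below all 3 siFBXL6 libraries. HES4 was not called (log2 fold change -0.24, SE 0.11, 95% interval -0.46 to -0.02, adjusted p = 0.0714 in edgeR's test, exact permutation p = 0.4). Its value rested on single siNC libraries, with a log2 fold change of -0.37 (adjusted p = 0.0028) without siNC replicate 1 and -0.07 (adjusted p = 0.683) without siNC replicate 2, the lowest and highest adjusted p of its 15 alternatives. With upper-quartile scaling it was called as well (log2 fold change -0.26, adjusted p = 0.0483).

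HEY1 (chr8:79764010-79767863, minus strand), a repressor of the Hairy-related family known from vessel and heart development, stood at 6.41, 7.37 and 7.45 CPM against 8.07, 6.90 and 6.84 CPM. The highest value is in siFBXL6 replicate 1 and the lowest in siNC replicate 1, while of the other 4 libraries both of siNC lie above both of siFBXL6. HEY1 was not called (log2 fold change 0.04, 95% interval -0.14 to 0.21, adjusted p = 0.766 in edgeR's test, exact permutation p = 0.8), and its sign turned when siNC replicate 1 or siFBXL6 replicate 1 was left out (-0.03 and -0.04). NRARP (chr9:137300482-137302251, minus strand), a feedback inhibitor that promotes loss of the Notch inner domain, stood at 1.76, 1.99 and 2.04 CPM against 2.05, 1.92 and 1.99 CPM. The groups overlap almost fully, and NRARP was not called (log2 fold change 0.04, 95% interval -0.26 to 0.34, adjusted p = 0.857 in edgeR's test, exact permutation p = 0.6). Its sign also turned without siNC replicate 1 (-0.02). A rise the size of that of NOTCH2 lies within the interval of NRARP and outside that of HEY1, and a fall the size of that of NOTCH1 lies outside both. Values for all 10 genes are drawn per library in the plot of CPM.

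**Figure D3:**
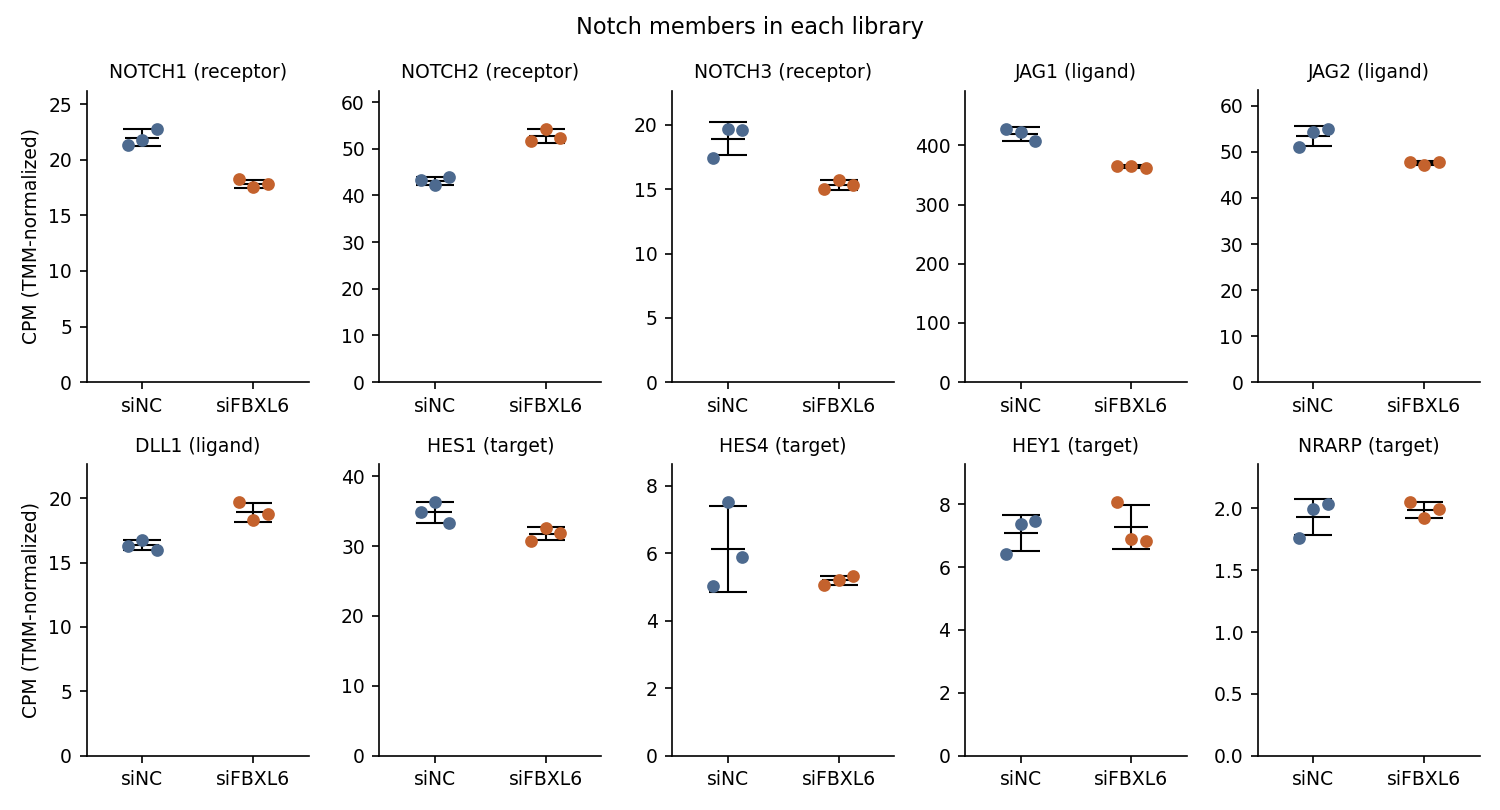
CPM on TMM-scaled library sizes of the 10 Notch genes in each library, with dots for the 3 libraries of a group in order of replicate and black marks for the mean and SD; each axis starts at 0. The groups separate for NOTCH1, NOTCH2, NOTCH3, JAG1, JAG2, DLL1 and HES1 and overlap for HES4, HEY1 and NRARP.

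The promoters of HES1 and HES4 are shown because they were the members whose RefSeq promoter holds the core of the RBPJ site, the element through which the receptor's inner part reaches its targets. Promoters of 250 bases before to 50 bases after the start (RefSeq, GRCh38.p14) were found for 8 of the 10 members, all but DLL1 and HEY1. The letters TGGGAA were searched on both strands and stood in 24.03% of the 35116 promoters of this length. HES1 holds 2 copies, at -84 and -70 from its start, and HES4 holds 1, at -76, while the windows of JAG1, JAG2, NOTCH1, NOTCH2, NOTCH3 and NRARP hold 0. Capitals mark TGGGAA in the bases from -130 to -65, from chr3:194136018-194136083 (plus strand) for HES1 and chr1:1000162-1000227 (minus strand) for HES4.
HES1: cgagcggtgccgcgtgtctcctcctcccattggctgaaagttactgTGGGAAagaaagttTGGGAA
HES4: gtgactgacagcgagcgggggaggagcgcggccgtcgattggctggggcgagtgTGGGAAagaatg
The deposited table starts HES4 75 bases further upstream than RefSeq does, and HES1 3 bases further upstream. TGGGAA thus stood in 2 of the 8 windows, near its share of all promoters. HES1 was called lower (log2 fold change -0.13) and HES4 was not called (-0.24), and whether each was called turned on single libraries. A link between the copies and these changes was not tested. The letters CACNAG, the N-box bound by HES proteins, searched on both strands, stood in 5 of the 8 windows (HES1, NOTCH1, NOTCH2, NOTCH3 and NRARP) and in 38.0% of all promoters. A match of letters describes a window and shows no binding.

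The levels of the members spanned a wide range. Per length in the libraries labelled siNC, JAG1 was highest at 49.2 ± 1.34 RPKM, followed by HES1 at 16.9 ± 0.722 and JAG2 at 8.36 ± 0.335 RPKM. HES4 (5.48 ± 1.14 RPKM) and DLL1 (5.07 ± 0.122 RPKM) came next, and their libraries overlap, so their order is not set. NOTCH2 (2.57 ± 0.0545 RPKM) stood above NOTCH1 (2.22 ± 0.0772 RPKM), HEY1 (2.19 ± 0.179 RPKM) and NOTCH3 (2.01 ± 0.135 RPKM). The ranges of NOTCH1 and HEY1 overlap, as do those of HEY1 and NOTCH3, and NRARP was lowest at 1.09 ± 0.0836 RPKM. In the libraries labelled siFBXL6 no neighbours in the order overlapped. There DLL1 (5.86 ± 0.224 RPKM) stood above HES4 (4.65 ± 0.113 RPKM), and HEY1 (2.25 ± 0.215 RPKM) above NOTCH1 (1.80 ± 0.037 RPKM). Summed over the 4 target genes, the level was 25.7 ± 1.81 RPKM against 23.4 ± 0.306 RPKM (exact permutation p = 0.1, n = 3 each). HES1 (16.9 and 15.4 RPKM) made up most of this sum. HEY1 (2.19 and 2.25 RPKM) and NRARP (1.09 and 1.12 RPKM) did not fall with it. The sum was highest in siNC replicate 2, at 27.7 RPKM, against 24.4 and 24.9 RPKM in siNC replicates 1 and 3.

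By position the members lie on 8 chromosomes. NOTCH1 and NRARP are the closest pair, with 754619 bases between them on chromosome 9; NOTCH1 fell and NRARP was not called. The genes whose profile over the 6 libraries was most like that of NOTCH3, the called member with the largest absolute log2 fold change, were AL034550.1, FERMT2 and SURF2, at Euclidean distances of 0.047, 0.052 and 0.052 in centred log2 CPM among 16192 genes.

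Around the members, 62 other genes of the pathway were listed by function. Earlier results of these data were known when these genes were chosen, so their share of calls is no test of the set. Of the 56 tested, 33 were called, 12 of them higher under the siFBXL6 label and 21 lower. That is 58.9% called, against 40.2% of all genes tested, of which 20.5% were higher and 19.8% lower. None reached 2-fold, the largest absolute log2 fold change being 0.59. Their median log2 fold change was -0.06 and the median absolute one 0.13, below the 0.18 of all genes tested. The strip plot of the pathway shows that 1 gene, TLE1, stands apart from the rest among those called. Apart from 1 gene per list and TLE1, the pathway genes named below were chosen after their values were seen.

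**Figure D4:**
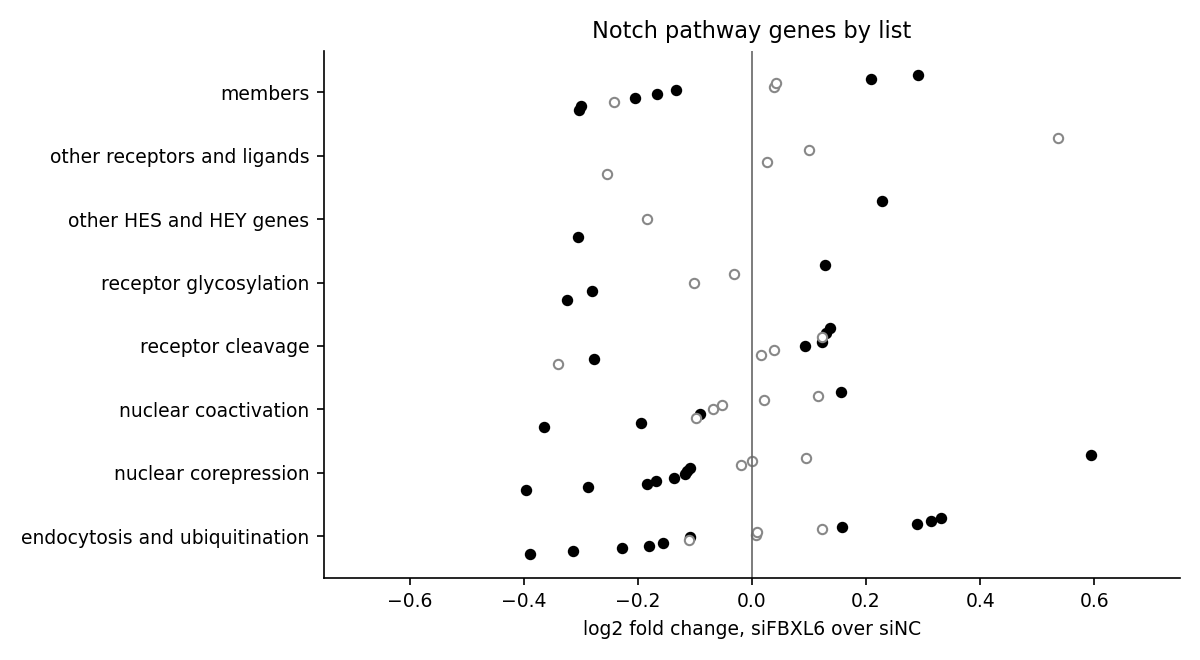
Log2 fold change of siFBXL6 over siNC for the tested genes of each Notch pathway list, 1 point per gene, filled where edgeR called the gene. Points lie on both sides of 0 in every list, and TLE1 at 0.59 is the farthest called gene.

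The remaining receptors and ligands were scarce. NOTCH4, DLL3, DLL4 and DLK2 were tested and 0 of the 4 was called by edgeR (0 also at an unadjusted p under 0.05, and 0 by DESeq2 or limma voom), with DLL3, an inhibitory ligand, at 0.17, 0.19 and 0.12 CPM against 0.26, 0.18 and 0.27 CPM. DLL3 had the smallest adjusted p of them (log2 fold change 0.54, adjusted p = 0.365 in edgeR's test), and its groups overlap. Of the other HES and HEY genes, 3 of 7 were tested and 2 called, where 40.2% of all genes were called. HES6, which promotes neuronal differentiation against HES1, fell from 4.92, 4.76 and 5.50 CPM to 4.27, 3.54 and 4.48 CPM (log2 fold change -0.30, adjusted p = 0.0204 in edgeR's test). That call was lost when siNC replicate 3 (adjusted p = 0.108) or siFBXL6 replicate 2 (0.159) was left out, within a range of 0.0131 to 0.159 over its alternatives. HES2 rose (log2 fold change 0.23, adjusted p = 0.0466 in edgeR's test), a call lost under 13 of the 15 alternatives, among them each library left out in turn, with adjusted p from 0.0448 to 0.12.

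Enzymes that put sugars on the receptors, which set how well they respond to each ligand, were called in 3 of 5, where 40.2% of all genes were called. POFUT1, which adds the first fucose, rose from 128, 122 and 125 CPM to 136, 133 and 140 CPM, a log2 fold change of 0.13 (adjusted p = 0.00118 in edgeR's test). POGLUT1, which adds glucose, fell by 0.28 on the log2 scale, and LFNG, the Lunatic fringe enzyme that favours Delta over Jagged ligands, fell by 0.32 (adjusted p = 0.00304 and 0.00557 in edgeR's test). Of the 9 cleavage genes 5 were called, 55.6% against 40.2% of all genes. ADAM10, the metalloprotease that makes the ligand-dependent cut, was the 1 called lower. It went from 308.7, 307.7 and 294 CPM to 247.8, 254.5 and 249.4 CPM, with no overlap (log2 fold change -0.28, adjusted p = 2.24e-09 in edgeR's test). Among the 4 called higher were ADAM17, a related protease, NCSTN, which encodes nicastrin, and FURIN, which trims the receptor on its way to the surface. Their log2 fold changes were 0.12, 0.13 and 0.09, and the groups of ADAM17 overlap. The call of ADAM17 was lost without siNC replicate 2 or 3 (edgeR adjusted p 0.0582 and 0.0566). Without these or siFBXL6 replicate 2 or 3 that of NCSTN was lost (0.0795, 0.0768, 0.135 and 0.136), and without these or siFBXL6 replicate 1 or 3 that of FURIN (0.0821, 0.0934, 0.172 and 0.102). Both calls were also lost with DESeq2 (0.0511 for NCSTN and 0.0661 for FURIN), upper-quartile scaling and library size alone, and that of FURIN with no filter. Over 15 alternatives the adjusted p ran from 1.8e-06 to 0.0582 for ADAM17, from 0.00764 to 0.136 for NCSTN and from 0.0363 to 0.172 for FURIN.

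In the nucleus, RBPJ rose slightly, from 45.1, 45.5 and 43.1 CPM to 48.9, 50.6 and 49.7 CPM (log2 fold change 0.16, adjusted p = 0.000896 in edgeR's test). Of the 9 coactivation genes 4 were called, 44.4% against 40.2% of all genes, and RBPJ was the 1 called higher. EP300, a histone acetyltransferase, fell from 94.8, 102 and 94.6 CPM to 76.4, 76.1 and 73.6 CPM, a log2 fold change of -0.36 (adjusted p = 5.65e-11 in edgeR's test). Its relative CREBBP fell by 0.19 on the log2 scale (adjusted p = 5.87e-05 by edgeR), and the Mastermind gene MAML2 by 0.09. The call of MAML2 was lost without siNC replicate 2, siFBXL6 replicate 1 or siFBXL6 replicate 2 (edgeR adjusted p 0.186, 0.124 and 0.107) and with DESeq2 (0.0614, and from 0.00675 to 0.186 over its alternatives). MAML1, the Mastermind gene first described, had a log2 fold change of -0.07 and was not called (adjusted p = 0.14 in edgeR's test), though it was with library size alone (log2 fold change -0.09, adjusted p = 0.0484).

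Corepressors, which hold RBPJ targets off or act with HES proteins, were called in 9 of 12, with 8 lower and 1 higher, where 19.8% of all genes tested were called lower and 20.5% higher. TLE1, a Groucho corepressor recruited by HES proteins, was the 1 called higher, from 42.7, 44.1 and 42.2 CPM to 64.7, 64.1 and 66.0 CPM. Its groups are far apart, with a log2 fold change of 0.59 (adjusted p = 1.64e-15 in edgeR's test). Its relatives TLE2 and TLE3 fell by 0.40 and 0.29 on the log2 scale (adjusted p = 0.00826 and 3.2e-08 by edgeR), and the call of TLE2 was lost without siFBXL6 replicate 3 (0.0505, in a range from 0.00561). The histone deacetylases HDAC1 and HDAC2, the corepressor SPEN and the C-terminal binding proteins CTBP1 and CTBP2 fell by 0.11 to 0.18 on the log2 scale, and the groups of SPEN overlap. Without siNC replicate 1 the log2 fold change of SPEN shrank to -0.08. The call of CTBP1 was lost without siNC replicate 1, siFBXL6 replicate 2 or siFBXL6 replicate 3 (log2 fold changes -0.08, -0.07 and -0.11, edgeR adjusted p 0.167, 0.293 and 0.091), with DESeq2 (0.0879) and with no filter (0.0523, and from 0.0142 to 0.293 over its alternatives).

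Genes of endocytosis and ubiquitination, which govern how long receptors and ligands stay at the surface and how long the inner domain lasts, were called in 10 of 14 tested, 4 higher and 6 lower, against 20.5% of all genes called higher and 19.8% lower. ITCH, a ubiquitin ligase that acts on the Notch receptor, rose from 148, 138 and 140 CPM to 180.5, 172 and 182.5 CPM (log2 fold change 0.33, adjusted p = 3.02e-10 in edgeR's test). The others called higher were NUMB, an inhibitor that directs receptors to degradation, DTX2, a Deltex ligase, and AAK1, an endocytic kinase, with log2 fold changes of 0.16, 0.31 and 0.29. FBXW7, the F-box protein that marks the freed inner domain for degradation, fell from 55.0, 51.5 and 49.6 CPM to 46.0, 48.5 and 45.7 CPM (log2 fold change -0.16, adjusted p = 0.00189 in edgeR's test). NUMBL, DTX3, DTX4, DTX3L and EPN1 fell by 0.23, 0.39, 0.11, 0.18 and 0.31 on the log2 scale, and DTX4 lost its call without siFBXL6 replicate 2 or 3 (edgeR adjusted p 0.0554 and 0.0521, and from 0.00165 over its alternatives). MIB1, the ligase that ligands need to signal, stood at 51.4, 50.4 and 50.9 CPM against 49.3, 52.3 and 51.9 CPM and was not called (log2 fold change 0.01, adjusted p = 0.909 in edgeR's test), with a sign that turned under upper-quartile and library-size scaling.

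The cells carried epithelial RNA, with little RNA of the uroplakins that mark mature urothelium. Of 14 epithelial and urothelial markers 11 were tested, and the siNC libraries held 1038 ± 21.1 CPM of KRT7, 851 ± 17.1 CPM of KRT8 and 274 ± 10.1 CPM of EPCAM. The uroplakin UPK1A had 0 counts in every library, UPK1B and UPK3A were under 0.1 CPM in each, and UPK2 was at 1.51, 1.1 and 1.64 CPM against 1.13, 1.22 and 1.23 CPM. Of the 11 tested, 8 were called, 2 higher and 6 lower, against 40.2% of all genes called (20.5% higher and 19.8% lower). The basal keratin KRT5 fell from 442.9, 429.9 and 439.5 CPM to 311.2, 311.5 and 315 CPM (log2 fold change -0.48, adjusted p = 7.84e-16 by edgeR), and the luminal regulator GATA3 fell by 0.53 on the log2 scale. KRT8, KRT19, EPCAM and KRT7 fell by 0.29, 0.15, 0.15 and 0.08, while TP63 and CDH1 rose by 0.18 and 0.16. The call of KRT7 was lost without siFBXL6 replicate 1 or 3 (edgeR adjusted p 0.074 and 0.107, and from 0.000987 over its alternatives).

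Markers of other cell types were mostly low. The 3 leukocyte markers summed to 7.18, 7.30 and 7.19 CPM in the siNC libraries and 19.98, 18.1 and 19.2 CPM in the siFBXL6 libraries. Per length the most abundant of them in both groups was CD68, a lysosomal protein (3.06 and 8.57 RPKM, log2 fold change 1.49, adjusted p = 4.65e-19 in edgeR's test), while PTPRC, the pan-leukocyte marker, was at 0.44, 0.70 and 0.38 CPM against 0.43, 0.33 and 0.23 CPM and CD3E had 0 counts in 5 of 6 libraries. The 3 endothelial markers summed to 1.85, 1.59 and 1.72 CPM against 2.38, 2.15 and 3.20 CPM. Per length, VWF had the highest mean of them in siNC (0.0985 RPKM) and PECAM1 in siFBXL6 (0.179 RPKM). The siNC libraries of VWF and PECAM1 overlap, so their order there is not set. PECAM1 was the 1 called (log2 fold change 1.27, adjusted p = 4.41e-05 in edgeR's test). The 4 fibroblast markers summed to 36.1, 37.6 and 35.1 CPM against 33.2, 32.6 and 31.7 CPM, and the most abundant per length was COL1A1 (3.56 and 3.21 RPKM), which fell by 0.15 on the log2 scale. The 3 muscle markers summed to 6.51, 6.52 and 6.72 CPM against 7.14, 7.17 and 7.40 CPM, with DES the most abundant per length (0.785 and 0.934 RPKM) and MYOD1 at 0 in all. The part of these markers in the Notch results was not tested.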

How the data were processed

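RNA-seq of 6 T24 libraries, 3 labelled siNC and 3 labelled siFBXL6, was used as the table of counts per gene that the authors deposited, without normalization. Both the paper's methods and the submitters' processing notes name featureCounts (Subread 1.5.1) and GRCh38. The paper names Trimmomatic 0.36 and HISAT2 before it, while the notes name fastp 0.23.0 and STAR. The annotation release, the strand setting and the treatment of reads with more than 1 match are not given in the sources used here.

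Default filterByExpr of edgeR 4.0.16 kept 21298 of 56303 genes. TMM scaling was followed by the quasi-likelihood test of edgeR (with limma 3.58.1 in R 4.3.3), with the group as the only term and Benjamini-Hochberg adjustment over all genes tested. CPM and RPKM were computed from the counts the authors deposited, RPKM with the table's exon lengths. Exact permutation tests were two-sided. Libraries of 1 group differed by more than counting noise (chi-square per degree of freedom 2.76 to 5.80). Exon overlaps came from the table's coordinates with bedtools 2.31.1, and promoters from RefSeq.

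The members and gene lists were chosen with earlier results of these data known. Genes named are the 10 members, FBXL6, ACTB, GAPDH, the NOTCH2 copies, of each pathway list those called whose log2 fold change was 0.5 or more in size and the smallest adjusted p, and the 3 genes most like the called member that changed most. All others named were picked once their values had been seen. Some results of the gene lists are withheld, though the counts per list include them. The alternatives were DESeq2 1.42.0, limma voom, a robust prior, other scalings and filters, the replicate number as a block, and each library left out in turn. The steps were tested on simulated data.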

Additional observations from a re-analysis of the deposited data

How the results depend on the processing

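Under 15 alternatives, between 6 and 8 of the 10 Notch members were called, 0 at 2-fold or more, and between 7451 and 8707 genes of all. Of 150 values for the members, 143 kept their direction and their side of the threshold, 2 lost the call (HES1), 2 gained it (HES4) and 3 turned sign. Over the 64 genes for which the alternatives were run, a part of those named, 893 of 959 values kept both. FBXL6 had log2 fold changes from -0.20 to -0.09 and was called in 0. Sign turned for genes near 0, and the cause was not tested. ACTB was at -0.019 with upper-quartile scaling, -0.022 with library size alone and -0.00083 with no filter, and MIB1 at -0.013 and -0.015 with those scalings. With each library left out in turn, HEY1 ran from -0.043 to 0.082, NRARP from -0.020 to 0.082, ACTB from -0.018 to 0.018 and MIB1 from -0.0082 to 0.033. With the replicate block, 7 members and 8408 of all genes were called, and HES2 and FURIN were not (adjusted p 0.0561 and 0.0566). Libraries that share a replicate number did not deviate together (correlations -0.085, -0.00021 and 0.019 over 10631 genes), so the number was not taken as a pairing. NRARP and HES4, at under 10 CPM, had the widest intervals, and 3 libraries per group limit every value.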
